A study of Homo sapiens with 2 samples.

Results

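Tall lone KMT2D peaks were the listed ChIP-seq peaks of chromosomes 1 to 22 that stood high, stayed short and had no other listed peak close by. They were selected on 3 deposited or derived values, namely a height of 80 or more in the authors' units, a width of 2000 bp or less, and a gap over 12500 bp and up to 250 kb to the nearest other listed peak of the chromosome. This rule found 1077 peaks among the 24151 listed on these chromosomes and the 24824 listed in all. The study precipitated KMT2D from formaldehyde-fixed OCI-LY7 cells, an established GCB-DLBCL line, that is, a diffuse large B-cell lymphoma of the germinal centre type, whose genotype is labelled wt. There was 1 KMT2D library, made with an antibody raised against the N-terminal part of the protein, and 1 input library made without antibody, both from this line, with no other treatment named in the labels. The values described here come from 1 peak list for the KMT2D library, and the input was not analysed separately. No value therefore has a replicate check, and the sequencing depth is unknown.

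KMT2D, also called MLL4, is the catalytic subunit of a large complex that methylates lysine 4 of histone H3. The complex also contains the demethylase KDM6A (UTX) and the core subunits WDR5, RBBP5, ASH2L and DPY30, and it is best known for placing monomethylation at enhancers and for their activation. KMT2D is a tumour suppressor in B-cell lymphoma, in which inactivating mutations of the gene are frequent. A ChIP-seq peak marks a stretch of DNA recovered with the protein more often than its surroundings. Peaks are given by position on hg19 as the list writes them. Genes and sequences at these positions were not analysed here.

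Height, width and gap chose the peaks, so their values describe the set and test nothing. Over all listed peaks of chromosomes 1 to 22, 10.6% (2560) reached a height of 80 and 36.5% had their nearest neighbour over 12500 bp away. Both held for 1194 peaks. Of those, 63 were wider than 2000 bp and a further 54 had a gap over 250 kb, which left the 1077. The height threshold ran through a continuous distribution. Among lone peaks within the width and gap limits, 99 had heights of 80 to 81 and entered, while 109 had heights of 78 to 79 and did not. On the gap, 91 tall peaks of up to 2000 bp stood over 12500 bp and up to 15 kb from a neighbour and entered, while 110 stood 10 kb to 12500 bp away and did not. At the upper gap limit 14 peaks with gaps of 200 to 250 kb entered and 18 with gaps of 250 to 300 kb did not. At the width limit the numbers were 26 inside (over 1800 and up to 2000 bp) and 17 outside (over 2000 and up to 2200 bp).

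The 1077 peaks had a median height of 95 (interquartile range 86 to 110) and a maximum of 291. Heights of 80 to 89 accounted for 358 peaks, heights of 90 to 99 for 277 and heights of 100 to 119 for 265. Another 121 peaks had heights of 120 to 149, and 56 peaks reached 150 or more. Most of the set thus lay close above its own threshold. The median width was 1089 bp, with an interquartile range of 927 to 1338 bp and a lowest value of 479 bp. Height and width were nearly unrelated within the set, with Spearman's rho at 0.03 and Pearson's r at 0.04 over the 1077 peaks, which share 1 library and were cut on both values. The median width was 1091 bp at heights of 80 to 84 and 1113 bp at heights of 120 or more.

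**Figure D1:**
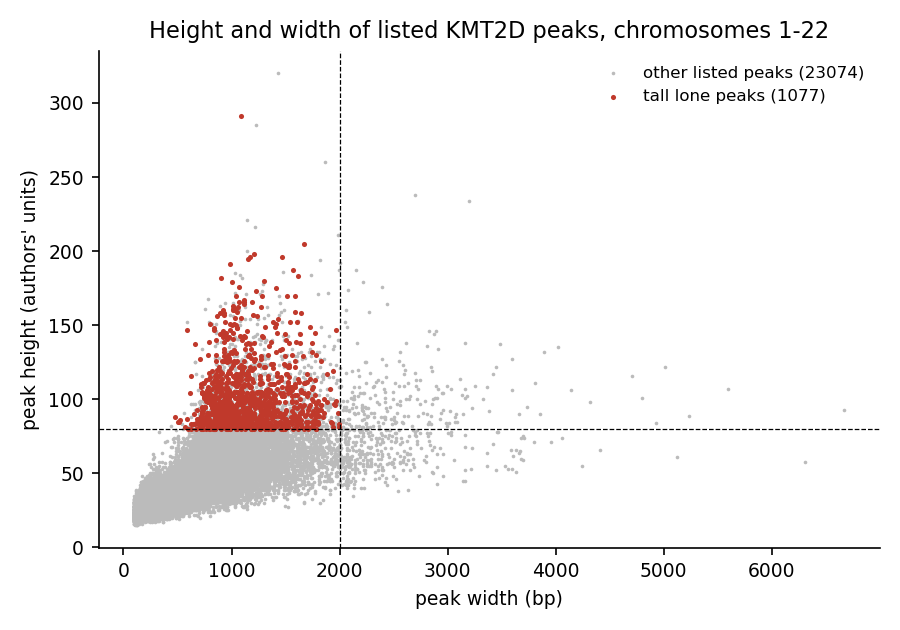
Height in the authors' units (vertical) against width in bp (horizontal) for the 24151 listed peaks of chromosomes 1 to 22; red points are the 1077 tall lone peaks, grey points all others, and dashed lines mark a height of 80 and a width of 2000 bp. The red points form a column with a median width of 1089 bp that does not lean towards greater width as height rises.

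The gap to the nearest peak had a median of 35.1 kb (interquartile range 20.7 to 60.8 kb). It was at most 25 kb for 368 peaks and over 100 kb for 109. On the farther side the next peak lay a median of 95.2 kb away, and this distance exceeded 100 kb for 508 peaks (47.2%). Gap and height were unrelated within the set (Spearman correlation -0.01, Pearson -0.02). The peaks with the shortest gaps lay at chr12:48499263-48500410 (height 94, gap 12510 bp), at chr1:12039987-12040972 (height 97, gap 12527 bp) and at chr19:11545896-11546778 (height 109, gap 12542 bp). Those with the longest gaps lay at chr16:27807085-27807868 (height 100, gap 245.4 kb), at chr3:38847003-38847856 (height 130, gap 245.3 kb) and at chr22:33963982-33964852 (height 91, gap 242.1 kb). Lone therefore covers anything from a neighbour just past the limit to an empty stretch of nearly 250 kb on each side.

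The tallest member lay at chr19:50489985-50491076, with a height of 291. Its neighbours were 56.5 kb away on the left, with a height of 78, and 37.3 kb away on the right, with a height of 60. The second lay at chr20:44599811-44601483 with a height of 205, so that the tallest member stood well apart from all others. A member at chr7:6542921-6544132 reached 198 between neighbours of heights 46 and 26. On chromosome 16, the peak at 29910839 to 29912011 reached 196 and had a neighbour of height 105 at 35.7 kb, which was itself a member. Chromosome 7 held a further pair of the 10 tallest, at 105751928 to 105753398 (height 196) and at 43622208 to 43623819 (height 183). The latter was the least symmetric of the 10, with its highest point 17.1% of the way from start to end, and its left neighbour lay 509.6 kb away.

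The remaining 4 of the 10 tallest showed the same form of a high peak among lower ones, with 1 exception. On chromosome 11, the peak at 61334322 to 61335474 reached 195 and had its neighbour of height 56 only 13.2 kb away, while the other side was empty for 136.3 kb. Chromosome 20 held another at 30555932 to 30556914 with a height of 191 in only 982 bp. On chromosome 2, the peak at 242823062 to 242824634 reached 187 with gaps of 147.9 and 83.7 kb. The exception lay at chr12:6771939-6772837. Its height was 182, and a peak of height 170 followed 24.9 kb to the right. The number of other listed peaks with centres within 150 kb ranged from 2 around the chromosome 11 peak to 26 around the chromosome 12 peak, so a gap over 12500 bp did not mean sparse surroundings.

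**Figure D2:**
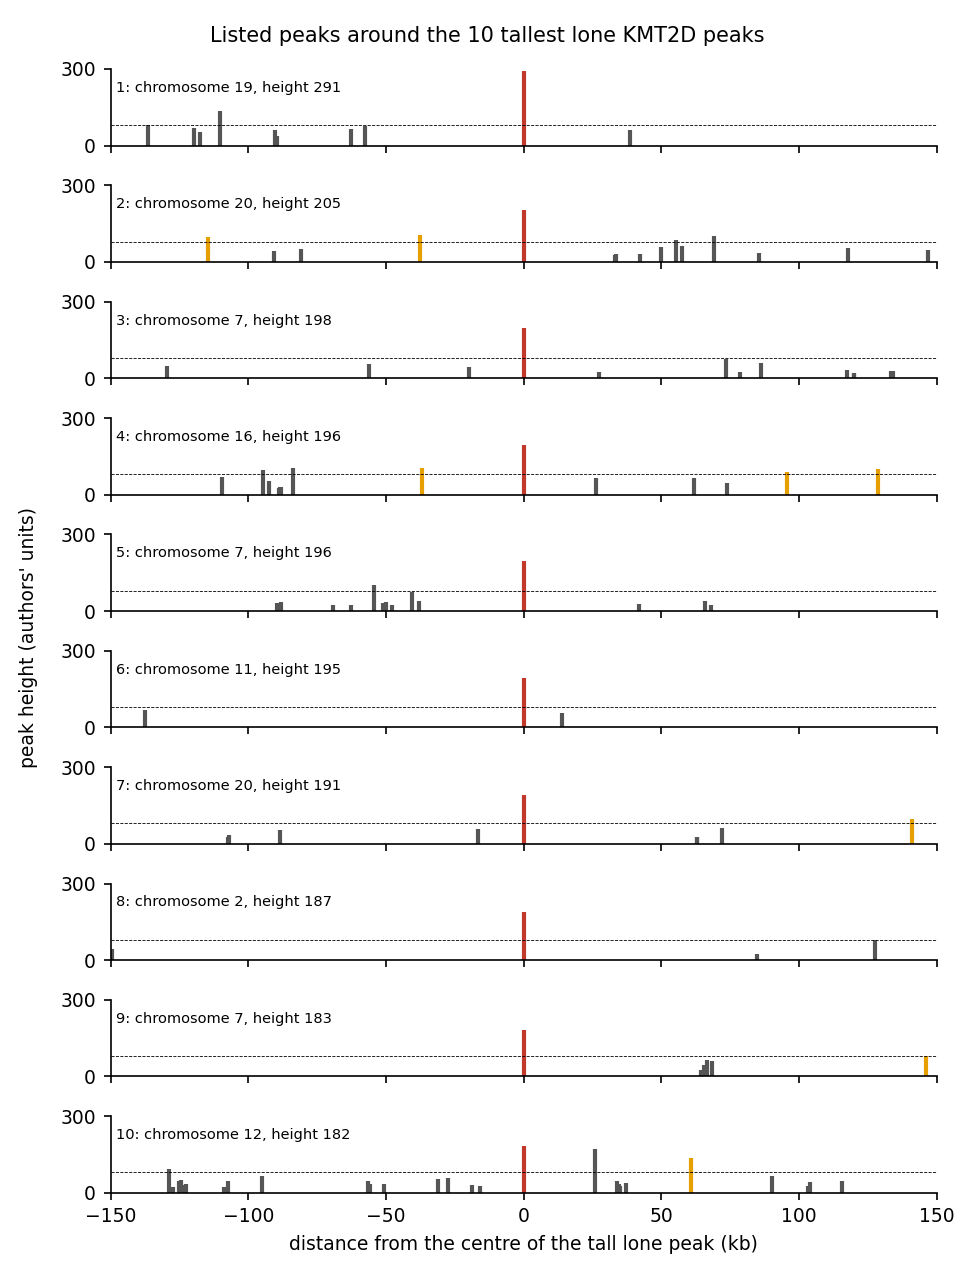
Height in the authors' units (vertical, 0 to 300) of listed peaks against distance in kb from the centre of each of the 10 tallest members (horizontal, 150 kb to each side), 1 panel per member in order of height; the red bar is the member in the centre, orange bars are 8 other members in 5 of the panels, grey bars are listed peaks that are not members, and the dashed line marks a height of 80. The central member is the highest bar of each panel, and the tallest other bar is 170, in the chromosome 12 panel.

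All 10 were listed at minus infinity in the significance column, which otherwise holds negative values like the logarithm of a p-value. Minus infinity was listed for 13 of the 1077 members, against 0.12% of all listed peaks of chromosomes 1 to 22. Height chose the members and the significance value comes from the same library, so nothing is read from this count. The other 3 were 2 peaks on chromosome 4, at 175749677 to 175750961 (height 170) and at 1403852 to 1404964 (height 164), and 1 at chr18:12702234-12703474 (height 156). Other members of similar height had finite values, such as -119.2 at chr16:87984171-87985471 (height 180) and -98.8 at chr11:65685970-65687481 (height 170). Over the 1064 members with a finite value, the Spearman correlation of significance with height was -0.73 and with width 0.19. The weakest significance values in the set were -40.4 at chr17:4045840-4047490 (height 81), -40.5 at chr22:50353581-50354887 (height 83) and -40.6 at chr19:56631746-56633316 (height 80). The median over the set was -67.6.

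Narrow members had higher scores than wide ones of similar height. The score is a second deposited column whose scale is not stated. For the 93 members of up to 800 bp the median score was 56.5 at a median height of 91, and for the 162 members over 1500 bp it was 45.5 at a median height of 96. Over the set, score had a Spearman correlation of 0.75 with height and -0.34 with width. The 3 narrowest members were all on chromosome 1, at 153424778 to 153425257 (479 bp, height 88), at 148241348 to 148241848 (500 bp, height 85) and at 1655590 to 1656106 (516 bp, height 85). The 3 widest lay at chr14:58764342-58766341 (1999 bp, height 83), at chr17:44269825-44271816 (1991 bp, height 81) and at chr11:66138424-66140410 (1986 bp, height 91). Scores of these 3 were 36.2 to 44.2, and those of the 3 narrowest 52.1 to 57.3.

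Members occurred on each of the 22 chromosomes, from 7 on chromosome 18 to 134 on chromosome 1. As a share of lone peaks within the same width and gap limits, they made up 5.26% on chromosome 18 (7 of 133; exact binomial 95% interval 2.14 to 10.5%) and 6.86% on chromosome 13 (12 of 175; 3.59 to 11.7%). The highest shares were 21.2% on chromosome 19 (98 of 463; 17.5 to 25.2%), 19.2% on chromosome 17 (83 of 432; 15.6 to 23.3%) and 19.1% on chromosome 20 (51 of 267; 14.6 to 24.3%). The median chromosome had 12.98%. As a share of tall peaks of up to 2000 bp, members gave a different order. Chromosome 19 was then lowest at 36.0% (30.3 to 42.0%), and chromosome 17 had 37.6% (31.2 to 44.3%). The highest were chromosome 4 at 73.3% (58.1 to 85.4%) and chromosome 18 at 70% (34.8 to 93.3%), and the median chromosome had 49.1%. The density of members per Mb of the span from first to last peak ran from 0.09 on chromosome 18 to 1.67 on chromosome 19. These intervals cover counting error over peaks, which are not replicates.

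The order of the chromosomes by share of lone peaks moved with the lowest height observed on each, whose part in that order was not tested. The lowest listed height ran from 15 on chromosomes 4 and 18 to 26 on chromosome 19, and the share of lone peaks that were members followed it across the 22 chromosomes (Spearman's rho 0.78, Pearson's r 0.80). When the tallest share was made equal on each chromosome, at the share that a height of 80 gives over all 22, the height needed was 93 on chromosome 19 and 72.7 on chromosome 4. Members then made up 12.96% of lone peaks on chromosome 19 (10.0 to 16.4%) and 16.7% on chromosome 4 (12.7 to 21.3%). At a height of 80 the shares were 21.2% and 10.6%. The order of these chromosomes was thus turned, but the intervals at the equal share overlapped. A higher share on chromosome 4 was therefore not resolved. The median height of the members ran from 88.5 on chromosome 10 to 99 on chromosome 20.

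**Figure D3:**
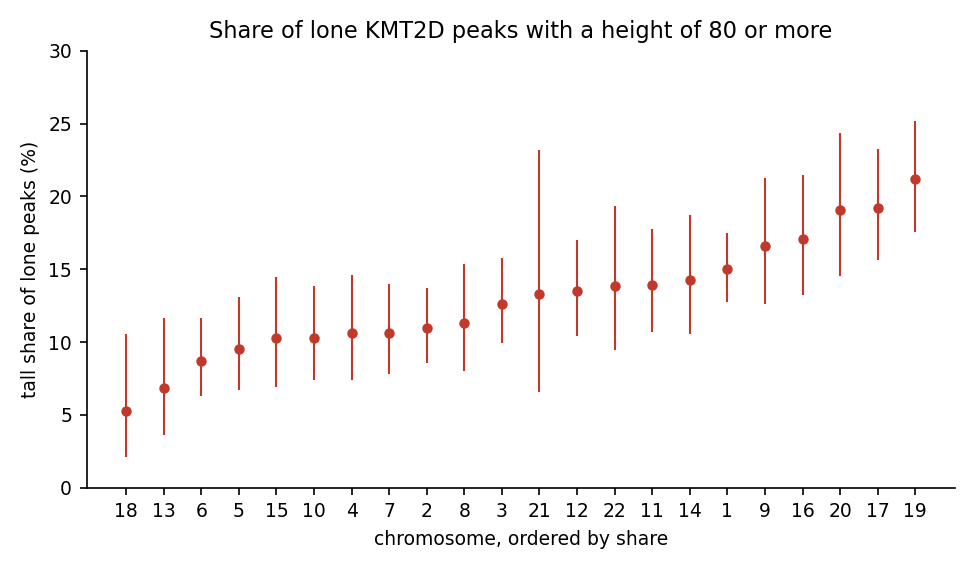
Members as a percentage of lone peaks within the width and gap limits (vertical) for each of the 22 chromosomes, ordered by that share (horizontal); points are shares and bars exact binomial 95% intervals. Shares run from 5.26% on chromosome 18 to 21.2% on chromosome 19, and most neighbours in this order have overlapping intervals.

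The tallest member of each chromosome, a choice made after the values were seen, reached at least 126. That lowest value belonged to chromosome 13 at 41019343 to 41020395. Chromosome 1, with the most members, had its tallest at 156251992 to 156253215 with a height of 173, and chromosome 17 had one of 175 at 45972790 to 45974201. Chromosomes 9 and 10 reached 170 at 129986377 to 129987964 and 161 at 124671080 to 124672106. Heights of 160 were found at chr5:151303774-151304801 and at chr22:45371133-45372058, the latter with gaps of 187.2 and 519.2 kb. On chromosome 8 the peak at 67578523 to 67580164 and on chromosome 14 the peak at 106267228 to 106268162 both had a height of 158. The tallest on chromosome 3 was 156 at 56528442 to 56529312, on chromosome 6 it was 155 at 116891925 to 116893014, on chromosome 21 it was 154 at 45758301 to 45759733, and on chromosome 15 it was 150 at 74583500 to 74584506. The chromosome 4 peak of height 170 was the most secluded of these over a longer range, with only 3 other listed peaks between 12500 bp and 1 Mb away.

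Although no other peak lay within 12500 bp, members sat in regions with more listed peaks than lower lone peaks did. The comparison used the 6996 lone peaks with a height under 80 and the same width and gap limits. Members had a median of 36 other peaks between 12500 bp and 1 Mb away (95% interval of the median 34 to 38), and lower lone peaks had 26 (26 to 27), a difference of 10 (interval 6 to 13). Within 250 kb the medians were 9 and 7, with a difference of 2 (1 to 3). Against lone peaks of height 70 to 79, with a median of 8, the difference within 250 kb was 1, with an interval that included 0 (-1 to 3). All listed peaks of chromosomes 1 to 22 had medians of 34 (34 to 35) up to 1 Mb away and 10 up to 250 kb away. These counts also start at 12500 bp. They leave out closer peaks, which most listed peaks have and lone peaks lack by the rule. Only beyond 12500 bp were members thus near the list as a whole, with lower lone peaks below it. The members' median within 1 Mb was the higher one on 19 of the 22 chromosomes and the lower one on 3, namely 6, 21 and 22. When the lower lone peaks were weighted to the members' chromosomes, the mean number was 34.7 (31.9 before weighting), against 40.1 for members, so the gap narrowed and kept its direction. No p-value was computed, because peaks of 1 library are not replicates and neighbouring peaks share their surroundings.

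The number of surrounding peaks also differed within the set by height. It was 32 (29 to 35) for members of height 80 to 89, 35 (32 to 38) at 90 to 109 and 41 (38 to 44) at 110 or more. Lone peaks just under the threshold, of height 70 to 79, had a median of 31 (28 to 33), and their difference from members was 5, with an interval of 0 to 10 that reached 0. The value thus ran on across the threshold without a step. Across members, Spearman's rho between height and this number was 0.14 and Pearson's r 0.16, so most of the spread was unrelated to height.

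**Figure D4:**
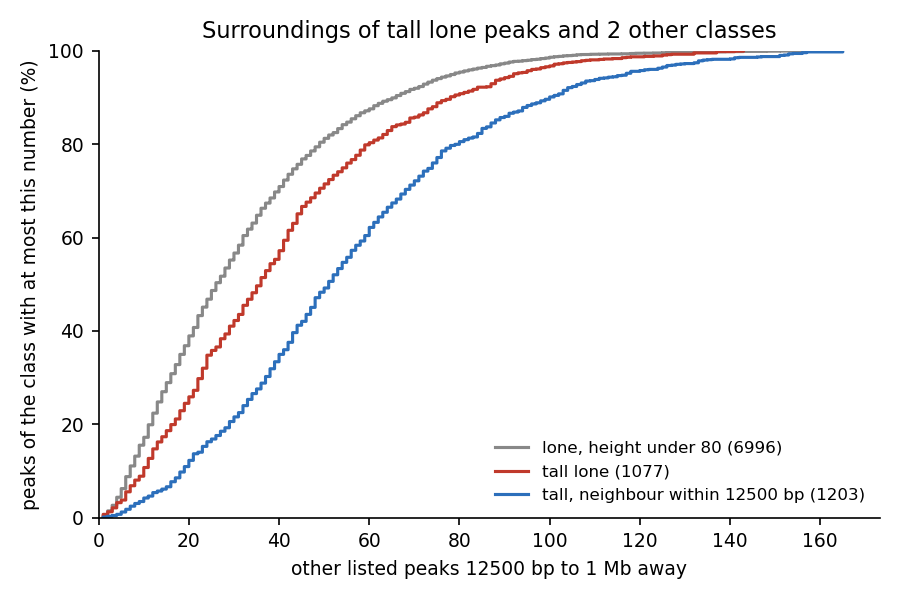
Cumulative percentage of peaks (vertical) by the number of other listed peaks between 12500 bp and 1 Mb away (horizontal) for members (red), lone peaks with a height under 80 (grey) and tall peaks with a neighbour within 12500 bp (blue). The red curve, with a median of 36, lies between the grey curve (median 26) and the blue curve (median 51).

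The nearest gap itself, which belongs to the rule, had similar medians in members and lower lone peaks. Its medians were 35.1 and 38.98 kb, a difference of -3.84 kb (-7.67 to -0.10 kb), and the members' median was higher on 11 chromosomes and lower on 11. The gap on the farther side was shorter for members, with medians of 95.2 and 124.1 kb and a difference of -28.9 kb (-42.4 to -18.3 kb), and it was shorter on 19 of the 22 chromosomes. Against lone peaks of height 70 to 79, with a median of 110.8 kb, the difference was -15.6 kb with an interval that included 0 (-37.2 to 1.48 kb). The nearest gap exceeded 100 kb for 109 members (10.1%, 8.38 to 12.1%) and for 1158 lower lone peaks (16.6%, 15.7 to 17.4%). Long nearest gaps were thus less frequent in members, although the medians were similar. The limits of 12500 bp and 250 kb on the nearest gap were the same in both classes.

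The peak nearest to a member was itself tall more often than the peak nearest to a lower lone peak. Of the 1077 nearest neighbours, 179 had a height of 80 or more (16.6%; exact 95% interval 14.4 to 18.98%), against 785 of 6996 (11.2%; 10.5 to 11.98%) and 10.6% of all listed peaks. The difference was 5.40 percentage points (Newcombe interval 3.16 to 7.85), and 4.58 points after weighting to the members' chromosomes. Lone peaks of height 70 to 79 had 12.1% (9.76 to 14.9%), which was 4.48 points below the members (1.06 to 7.73). By height, the share was 12.6% (9.32 to 16.5%) for members of 80 to 89, 18.1% (14.7 to 22.01%) at 90 to 109 and 19.5% (14.9 to 24.7%) at 110 or more, so the share in members close above the threshold lay within the interval of peaks close below it. For 131 of the 1077 members the nearest neighbour was itself a member. Members nearest to each other thus entered the count of 179 from both sides, which the intervals do not allow for. The nearest neighbour was lower than the member in 992 cases (92.1%) and at most 50% as high in 556 (51.6%); the height limit largely sets these shares, since 10.6% of all listed peaks reached 80. The median distance to the nearest tall peak of any width was 151.6 kb for members and 252.4 kb for lower lone peaks, a difference of -100.8 kb (-133.8 to -71.6 kb). The members' median distance was shorter on 18 chromosomes and longer on 4. Against lone peaks of height 70 to 79, at 211.9 kb, the difference was -60.3 kb (-133.1 to -19.2 kb), with a shorter median on 15 chromosomes and a longer one on 7. This distance was not weighted to the members' chromosomes.

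Some members lay close to one another. Another member was within 100 kb for 236 of them (21.9%), and the median distance to the next member was 335.8 kb. A tall peak of any width was within 100 kb for 39.5% of members and 27.7% of lower lone peaks. The share of lower lone peaks with a member within 100 kb was not computed, so the counts of close members only describe the set. The 2 members nearest to each other were on chromosome 10, at 75489859 to 75490768 (height 93) and 75503523 to 75504615 (height 87), 12.8 kb apart. Read along the list, 863 members had no member directly before or after them, while 91 pairs, 8 triplets and 2 runs of 4 followed one another with no other peak between. One run of 4 lay on chromosome 1 at 1590278 to 1656106, over 65.8 kb, with heights of 86, 96, 110 and 85. It included 1 of the 3 narrowest members, and another of its peaks was 523 bp wide. The other run lay on chromosome 15 at 66161340 to 66447571, over 286.2 kb, with heights of 84, 93, 107 and 94. In windows of 1 Mb, 699 windows held a member and 236 held 2 or more. The fullest, chosen after its values were seen, was on chromosome 17 from 73 to 74 Mb, with 8 members among 12 lone and 61 listed peaks. Their heights were 85, 93, 112, 88, 170, 125, 80 and 108 in order of position, and the peak of height 170 at 73201128 to 73202169 stood 21.6 kb from a member of height 88.

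The highest point of a member lay near its centre. Its distance from the centre had a median of 9.31% of the width (95% interval 8.65 to 9.72%), it was at most 10% for 588 members (54.6%), and it exceeded 25% for 51 (4.74%). In lower lone peaks the median was 14.3% (13.9 to 14.7%), a difference of -4.94 percentage points (-6.26 to -4.04), and the members' median was the smaller one on each of the 22 chromosomes. This distance fell with height among lone peaks until a height of about 60 and not beyond. It was 21.2% at heights of 15 to 29, 11.7% at 50 to 59, 9.72% at 60 to 69, 8.97% at 70 to 79 and 9.75% in members of 80 to 89. Against lone peaks of height 70 to 79 the difference was 0.34 points (-1.47 to 1.60). A more central highest point than in lone peaks just under the threshold was therefore not resolved. The lowest lone peaks were also narrow, with a median width of 189 bp at heights of 15 to 29.

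**Figure D5:**
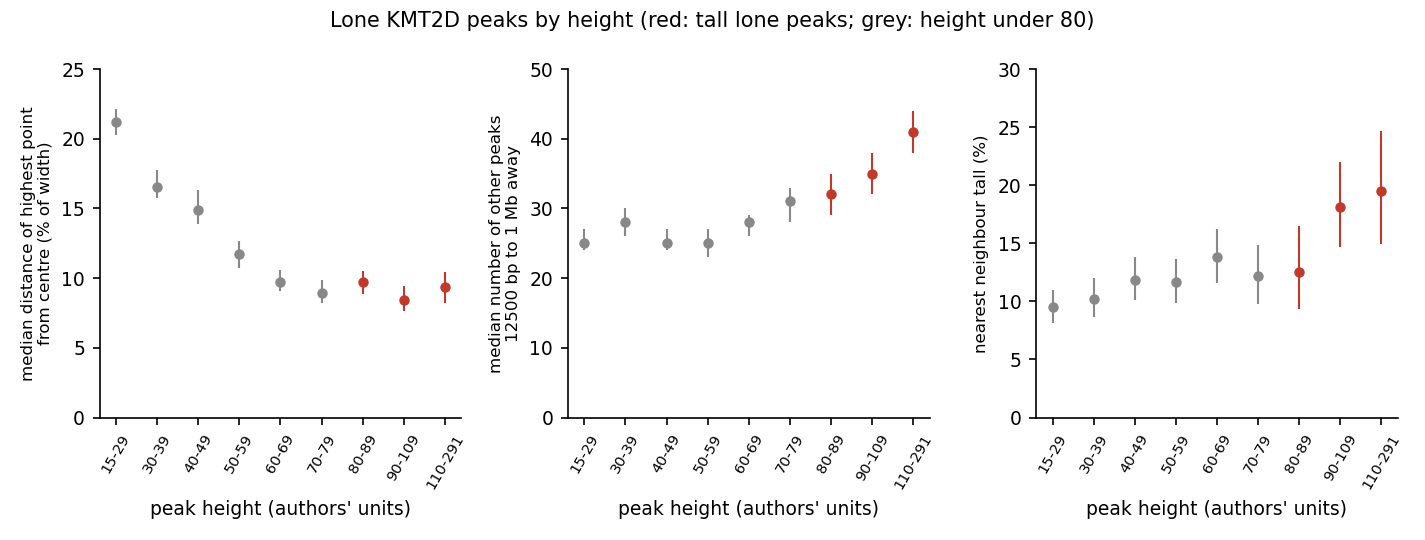
Lone peaks within the width and gap limits, in 9 classes of height in the authors' units (horizontal), with members in red and lower peaks in grey: median distance of the highest point from the centre in percent of width (left), median number of other peaks between 12500 bp and 1 Mb away (middle) and percentage whose nearest neighbour was tall (right). Points are medians or shares and bars 95% counting intervals; the left panel is level from a height of 60, while the middle panel goes from 31 at 70 to 79 to 41 at 110 or more and the right panel from 12.1% to 19.5%.

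Members were last set beside the 1203 peaks of the same height and width limits that had another peak within 12500 bp. Heights were alike, with medians of 95 and 94. Members were narrower in each of 5 height classes. At heights of 80 to 84 the median widths were 1091 bp for 211 members and 1120 bp for 257 grouped peaks. At 90 to 99 they were 1062 and 1140 bp, and at 100 to 119 they were 1083 and 1198.5 bp. At 120 or more they were 1113 and 1217 bp, the latter over 199 peaks. Significance values were also more negative in members in each class, with medians of -58.2 and -57.0 at 80 to 84 and of -106.3 and -97.6 at 120 or more. The classes were not matched for chromosome, and the members' median significance by chromosome ran from -80.3 to -57.7. Scores had no common direction, being 43.4 and 44.0 at 85 to 89 but 70.5 and 67.5 at 120 or more. Width and height belong to the rule and the other columns come from the same peaks, so these values are a description and were not tested.

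The distance of the highest point from the centre, which the rule did not use, was 9.31% in members and 9.63% in grouped tall peaks. The difference was -0.32 points (-2.03 to 0.80), an interval that included 0, and members had the larger median on 13 chromosomes and the smaller on 9. The nearest neighbour was tall for 138 of the 1203 grouped peaks (11.5%; 9.72 to 13.4%), which was 5.15 points below the members (2.30 to 8.03). By distance the order was the other way. A tall peak lay within 100 kb of 784 grouped peaks (65.2%; 62.4 to 67.9%) and of 425 members (39.5%; 36.5 to 42.5%). The median distance to the nearest tall peak was 48.4 kb for grouped peaks and 151.6 kb for members. The nearest neighbour of a grouped peak lay a median of 2.45 kb away and had a median height of 37, against 49 (46 to 51) for that of a member. Beyond 12500 bp, grouped tall peaks had a median of 51 other peaks up to 1 Mb away (49 to 53), which was 15 more than members (10 to 20). The rule split these classes by the distance to the nearest peak, and its part in these differences in surroundings was not tested.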

How the data were processed

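The deposited data were 1 peak list with 11 columns and no header, for 1 KMT2D ChIP-seq library. The submitters' processing notes name CASAVA 1.8.2 and the build hg19. Which peak caller and threshold were used, how the input entered and whether positions count from 0 or 1 are matters not given in the sources used. The meaning of columns was read from their values. The authors deposited a peak height (signal, in their own units, normalization not stated), 2 score columns (a positive score and a negative significance value) and the position of the highest point in percent of the width. These are the authors' values and were used only within this list.

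Gaps were measured between the edges of listed peaks. Intervals are exact binomial for shares, order-statistic for medians and Newcombe for differences of shares, at 95%. A difference of medians carries the joined order-statistic intervals of both, which is conservative. They cover counting error over peaks only. With 1 library no p-value was computed. Functions were tested on simulated data. The members and comparisons were chosen with earlier results of these data known. The naming rule took the 10 tallest members, the 3 with the shortest and longest gaps, the 3 narrowest and widest, and the nearest pair. Planned comparisons with gene starts and motifs need an hg19 annotation or sequence and are not reported. Alternatives changed the height, gap and width limits, merged peaks under 500 bp apart, or equalized the tall share over chromosomes. Scripts ran under Python 3.11.15 (scipy 1.17.1, pandas 2.3.3, numpy 2.4.6; figures with matplotlib 3.10.9).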

Additional observations from a re-analysis of the deposited data

How the results depend on the processing

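Each of 34 alternative values was set against the counting interval of the reported one, or, for the number of members, against a change of 1.5 times; 21 lay within these bounds and 13 outside. A height of 100 or more gave 442 members, which made up 9.72% of lone peaks on chromosome 19 and 3.86% on chromosome 4, and a nearest-neighbour difference of 2.92 percentage points. A height of 60 or more gave 2643 members, 43.6% and 28.6% on these chromosomes, and a difference of 5 in the median number of peaks within 1 Mb. These counts and shares follow from the limit. A gap over 25 kb gave 709 members. An equal tall share on every chromosome gave 12.96% on chromosome 19 and 16.7% on chromosome 4, which turned their order with overlapping intervals. The difference in surrounding peaks was 5.45 (a difference of means) after weighting to the members' chromosomes and 5 against lone peaks of height 70 to 79, both chosen after seeing the data. For the nearest-neighbour and surroundings values the cause was not tested. Both differences between members and lower lone peaks kept their sign under each alternative that was run for them. They were not computed at a gap over 5 kb, without the width limit, without the upper gap limit or at an equal tall share. Gene starts, sequence and their alternatives were not run. No paired analysis was possible because there was 1 KMT2D library. The depth is unknown, so an empty stretch beside a member cannot be called unbound.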

Other observations

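On chromosome X, which the rule left out, 208 lone peaks met the same width and gap limits and 1 of them reached a height of 80 (0.48%; exact 95% interval 0.01 to 2.65%). It lay at 153140454 to 153141566, with a height of 177, a width of 1112 bp, a gap of 24.7 kb and a significance value of minus infinity. The lowest share on chromosomes 1 to 22 was 5.26%, on chromosome 18. The height of 80 was kept for chromosome X, and no value at an equal tall share is given for it.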
